A study of Mus musculus with 11 samples.

Results

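Interferon-stimulated genes are the transcripts that cells raise when an interferon binds its receptor. A list of 42 of them, chosen by gene symbol and without the antigen presentation genes, was followed through 11 RNA-seq libraries of WFU3, a cultured line of mouse prostate epithelial stem cells. All 42 symbols were found among the 48299 rows of the deposited count table. Of these, 37 had enough reads to be among the 14346 genes tested, and Ifit3, Oas2, Mx1, Mx2 and Rsad2 did not.

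The study compared 4 groups that differed in the lentiviral short hairpin RNAs (shRNAs) the cells carried. The shControl group (3 libraries) carried control hairpins only. It held an unnumbered line at passage 30 with hairpins marked puro and neo, and control lines 4 and 5, both at passage 52 and both with a GFP and a puro control hairpin. The shMap3k7 group (2 libraries) was clone 1 (passage 49) and clone 7 (passage 47), which carried a hairpin against Map3k7 with GFP and a puro control hairpin. The shChd1 group (2 libraries) was control line 4 with the Chd1 hairpin 96526 (passage 52) or 96528 (passage 50) in the puro vector. The shDouble group (4 libraries) was clone 1 (passage 49) and clone 7 (passage 48), each with Chd1 hairpin 96526 or 96528. Per the labels, clones 1, 7, 4 and 5 were each picked from a single colony. The shChd1 group therefore rests on 1 line, and shMap3k7 and shDouble on the same 2 clones. No interferon, virus or other stimulus is named in the labels. The levels below are those of cells in growth medium.

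Type I interferons bind a receptor made of IFNAR1 and IFNAR2. The receptor's kinases JAK1 and TYK2 then phosphorylate STAT proteins, among them STAT2, which join IRF9 and bind a promoter motif called the interferon-stimulated response element (ISRE). Interferon gamma uses IFNGR1 and IFNGR2, and its target promoters hold a motif called GAS. Many of these target genes are also transcribed at a low level in cells that no interferon was added to. Map3k7 encodes TAK1, a kinase that passes signals from Toll-like, interleukin-1, TNF and TGF-beta receptors to NF-kB and to the JNK and p38 kinases. Chd1 encodes a chromatin remodeller found at active promoters.

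The ISRE was searched for as GAAANNGAAA, on both strands, in the 250 bases before each gene's start in RefSeq (build GRCm38.p6). Of the 42 members, 32 had such a window under their symbol. The motif was found before 12 of these 32 (37.5%), against 3.46% of the 27025 genes in the RefSeq table. The GAS motif, searched for as TTCNNNGAA, was found before 7 of the 32 (21.9%) against 8.13% of all genes. An NF-kB motif was found before 2 (6.25%) against 4.46%. The stretches below show the motif before the 6 members with the smallest adjusted p-values among those that hold it. They lie upstream of Bst2 (chr8:71537562-71537627, minus strand), Mndal (chr1:173880189-173880248, minus strand), Gbp7 (chr3:142530258-142530317, plus strand), Gbp2 (chr3:142620579-142620638, plus strand), Gbp3 (chr3:142559974-142560039, plus strand) and Isg15 (chr4:156200850-156200921, minus strand). Each is written 5′ to 3′ along the gene's own strand, and capitals mark bases within an ISRE match on either strand.
Bst2: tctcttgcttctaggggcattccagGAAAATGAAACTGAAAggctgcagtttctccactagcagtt
Mndal: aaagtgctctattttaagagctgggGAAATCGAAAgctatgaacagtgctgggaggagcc
Gbp7: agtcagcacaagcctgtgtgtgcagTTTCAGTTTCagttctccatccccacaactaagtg
Gbp2: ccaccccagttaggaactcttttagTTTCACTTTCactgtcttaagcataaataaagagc
Gbp3: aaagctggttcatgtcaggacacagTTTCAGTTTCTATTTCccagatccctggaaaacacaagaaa
Isg15: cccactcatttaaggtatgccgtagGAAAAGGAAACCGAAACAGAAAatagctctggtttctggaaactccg
Overlapping matches were counted separately, so Bst2 and Gbp3 hold 2 matches and Isg15 holds 3. In these 6 genes the match nearest the start ended 115 (Bst2), 27 (Mndal), 44 (Gbp7), 50 (Gbp2), 30 (Gbp3) and 57 (Isg15) bases before it. For Bst2 and Gbp7, the bases after the RefSeq start were not found in that gene's GENCODE M21 transcripts. Their distances rest on the RefSeq start alone. A match describes the letters only. Binding of any factor was not measured in these libraries.

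Libraries held 14132371 to 23163709 counts, so that 3 counts in a library equalled 0.133 to 0.217 CPM (counts per 1000000, scaled by the effective library size). Map3k7 stood at 39.3 to 43.0 CPM in the 6 libraries with its hairpin and at 124 to 140.4 CPM in the other 5. Chd1 stood at 145 to 198 CPM in the 6 libraries with a Chd1 hairpin and at 195 to 238 CPM in the other 5, so these ranges overlapped. Libraries of the same line correlated across genes at r of 0.973 to 0.987, and libraries of different lines at 0.859 to 0.969. The library of control line 4 stood apart from both other controls. Summed epithelial marker levels (Epcam, Cdh1, Krt5, Krt14, Krt8, Krt18, Trp63) were 9661, 3832 and 6589 CPM in the unnumbered control, control 4 and control 5, 2291 and 2039 CPM in shChd1, and 9904 to 10483 CPM in the 6 Map3k7 hairpin libraries. The basal keratin Krt5 was at 48.9 CPM in the unnumbered control and at most 1.93 CPM elsewhere. Summed fibroblast markers (Pdgfra, Pdgfrb, Dcn, Lum, Col3a1, Twist2) were 86.9, 45.4 and 23.4 CPM in the same controls, 132 and 125 CPM in shChd1, and 4.34 to 9.71 CPM in the Map3k7 hairpin libraries, with Lum at 0 in all 11. Of the 7 epithelial markers, 2 rose and 1 fell in shMap3k7, 4 rose and 2 fell in shDouble, and 5 fell in shChd1, all against shControl. Of the 4 fibroblast markers tested, 3 fell in shMap3k7, 4 in shDouble and 0 in shChd1. With line as a replicate block by an estimated correlation (limma voom), only Cdh1 and Pdgfrb of these markers passed in shMap3k7 (adjusted p = 0.0282 and 0.0448). Col3a1 and Krt5 then did not pass in shDouble (0.297 and 0.870), nor Cdh1 and Krt18 in shChd1 (0.0684 and 0.103). With line as a fixed block, Col3a1 rose in shChd1 (edgeR, log2 2.31, adjusted p = 0.00185). Of all genes tested, 7.08% fell and 4.86% rose in shMap3k7, 13.6% fell and 10.2% rose in shDouble, and 2.24% fell in shChd1. Endothelial markers (Pecam1, Cdh5, Kdr) summed to 38.1 CPM in the unnumbered control and to at most 0.436 CPM elsewhere. The 7 immune markers found in the table (Ptprc, Cd68, Adgre1, Csf1r, Lyz2, Cd3e, Cd79a) summed to 1.62 to 4.22 CPM, with Cd3e at 0 in all 11 libraries and Ptprc at most 0.195 CPM. Of these, only Cd68 and Csf1r were tested. In edgeR, Csf1r was higher in shDouble than in shControl (log2 2.57, adjusted p = 0.0313) and than in shChd1 (log2 5.56, adjusted p = 0.00514). With the estimated correlation its adjusted p was 0.0829 and 0.0621. Cd68 passed in neither. These marker levels move with the groups, and their part in the results below was not tested. In bulk libraries, fewer cells with a transcript and less of it per cell cannot be told apart.

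In the controls, 13 of the 42 members averaged under 1 CPM, 13 averaged 1 to 10 CPM and 16 averaged 10 CPM or more. Per kilobase of exon, the mean control level was 448 CPM for Ifitm3, a membrane protein that blocks the entry of viruses. It was 13.8 for Trim25, 13.1 for Ifi27 and 12.2 for Bst2 and Ifi35, and it was at most 0.0322 for Mx1, Mx2, Oas2 and Rsad2. The 3 controls were not alike. Control 4 was the highest control for 31 of the 37 members tested, a pattern shown by 37.2% of all genes tested. Ifi27, a small hydrophobic protein of internal membranes, stood at 5.93 CPM in the unnumbered control, 46.3 CPM in control 4 and 5.33 CPM in control 5. Rtp4, a chaperone for membrane receptors, stood at 0.562, 4.62 and 0.385 CPM. Control 4 was thus 8.23 times the mean of both other controls for Ifi27 and 9.76 times for Rtp4. Isg20, an exonuclease that degrades RNA, did not share this order, at 14.7, 16.0 and 18.8 CPM. The median departure of the members from the control mean was -0.42 on the log2 scale in the unnumbered control, 0.65 in control 4 and -0.25 in control 5.

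**Figure D1:**
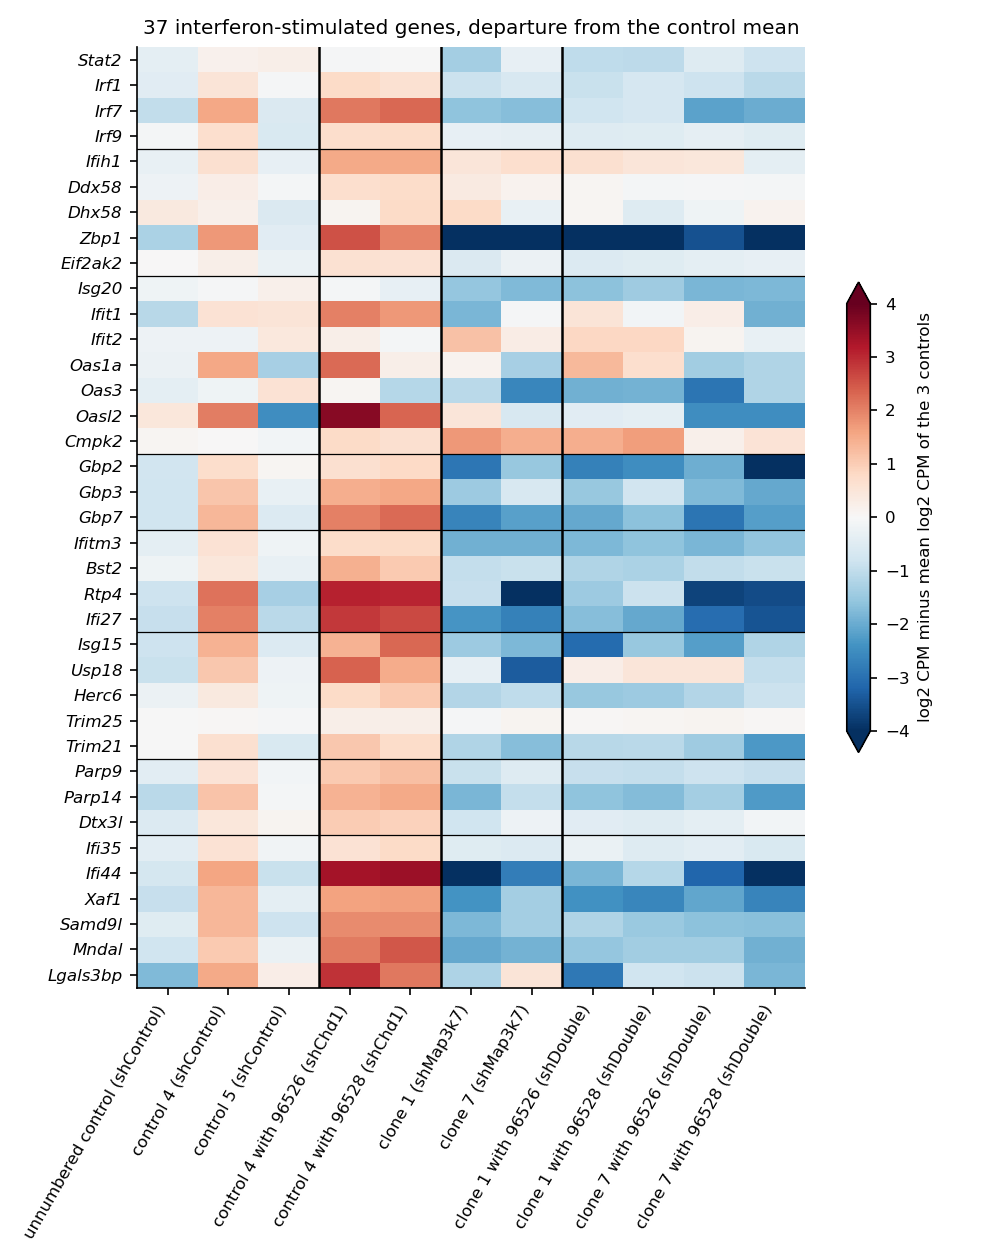
Log2 CPM of the 37 members tested (rows, grouped by role) in the 11 libraries (columns, grouped by hairpin), each less the mean of the 3 controls; red is higher and blue lower, and colours saturate at the ends of the scale. Control 4 and the shChd1 libraries are mostly red and the 6 Map3k7 hairpin libraries mostly blue, with median departures of 0.65 in control 4, 1.38 and 1.06 in shChd1, and -0.85 to -1.35 with the Map3k7 hairpin.

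The first question was how the Map3k7 hairpin, alone or with a Chd1 hairpin, moved these genes. Against shControl, 11 of 37 members fell and 0 rose in shMap3k7, where 7.08% of all genes tested fell and 4.86% rose. In shDouble, 21 of 37 fell and 0 rose, where 13.6% of all genes fell and 10.2% rose. The median log2 difference of the members was -1.13 in shMap3k7 and -1.49 in shDouble, against -0.0086 and -0.00152 over all genes tested. Both comparisons used the same 3 controls. All 6 Map3k7 hairpin libraries lay below all 3 controls for 17 of the 37 members, a pattern shown by 14.6% of all genes, and all 6 lay above them for 1 member, Cmpk2 (13.7% of all genes). A gene is called changed here at an adjusted p under 0.05 (edgeR quasi-likelihood test, Benjamini-Hochberg over all genes tested).

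These counts depended on how the shared lines were treated. With line as a replicate block by an estimated correlation (limma voom), 2 members fell in shMap3k7 (Isg20 and Ifitm3), where 2.58% of all genes fell. In shDouble, 6 fell in that fit (Isg20, Ifitm3, Bst2, Herc6, Parp9 and Gbp2), where 5.86% of all genes fell. With counts summed per line, 2 members fell in shMap3k7 and 4 in shDouble, where 1.82% and 2.50% of all genes fell. Where a call named below is lost with the estimated correlation, that adjusted p is given beside it.

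The counts also depended in part on control line 4. When its 3 libraries were left out, 3 members fell in shMap3k7 (Isg20, Ifitm3 and Zbp1, median -0.70) and 11 in shDouble (median -0.85), of 31 members then tested. Of all genes, 3.14% and 7.21% then fell. All 6 Map3k7 hairpin libraries were below both remaining controls for 17 members, against 17.1% of all genes. The shMap3k7 count was 6 without control 4, where 7.64% of all genes were called in either direction. It was 6 or 7 without either shChd1 library (8.10% and 8.15%) and 7 without clone 1 with 96526 (9.88%). Leaving out clone 1 or clone 7 leaves a single library in shMap3k7. The median log2 difference ran from -1.41 to -0.71 over all libraries left out singly. The shMap3k7 count was 15 without the unnumbered control (12.6% of all genes). The shDouble count ran from 15 to 25 when any single library was left out, with 15.3% to 23.1% of all genes called. In shDouble, Mndal (adjusted p = 0.0601), Trim21 (0.0788) and Ifi44 (log2 -1.39, adjusted p = 0.261) were among the calls lost without line 4, and Isg15 and Oas3 were then not tested.

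Of the 4 membrane proteins, 2 fell in shMap3k7 and 3 in shDouble, where 7.08% and 13.6% of all genes fell. Ifitm3 (chr7:141009586-141010770, minus strand) stood at 221, 434 and 256 CPM in the unnumbered control, control 4 and control 5, and at 482 and 498 CPM in shChd1. The 6 Map3k7 hairpin libraries held 77.1 to 97 CPM (median 83.0), 25.4% of the control mean in shMap3k7 and 29.6% in shDouble. No Map3k7 hairpin library reached the lowest control. Ifitm3 fell by 1.98 ± 0.25 on the log2 scale (± standard error) in shMap3k7 (adjusted p = 0.00185) and by 1.76 ± 0.19 in shDouble (adjusted p = 0.000323), and both calls held under every alternative tried.

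Bst2, or tetherin, holds budding virus at the cell surface. It stood at 9.55, 14.8 and 8.74 CPM in the controls, 28.7 and 22.4 CPM in shChd1, and 4.41 to 5.82 CPM (median 5.48) with the Map3k7 hairpin. Bst2 fell by 0.97 ± 0.25 in shMap3k7 (adjusted p = 0.0325) and by 1.13 ± 0.20 in shDouble (adjusted p = 0.00348), the former with an adjusted p = 0.120 with the estimated correlation. For Ifi27, the Map3k7 hairpin libraries held 1.01 to 3.45 CPM (median 1.97) and the shChd1 libraries 80.5 and 71.4 CPM. Its log2 difference was -3.28 ± 0.99 in shMap3k7 (adjusted p = 0.0558), and it fell by 3.14 ± 0.73 in shDouble (adjusted p = 0.0121; adjusted p = 0.0783 without line 4 and adjusted p = 0.159 with the estimated correlation). Rtp4 held 0 to 0.551 CPM (median 0.207) with the Map3k7 hairpin and 8.77 and 8.66 CPM in shChd1. Its difference did not pass the test in shMap3k7 (-2.77 ± 1.34, adjusted p = 0.201) or shDouble (-2.79 ± 0.99, adjusted p = 0.0665). The controls themselves ran from 0.385 to 4.62 CPM.

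**Figure D2:**
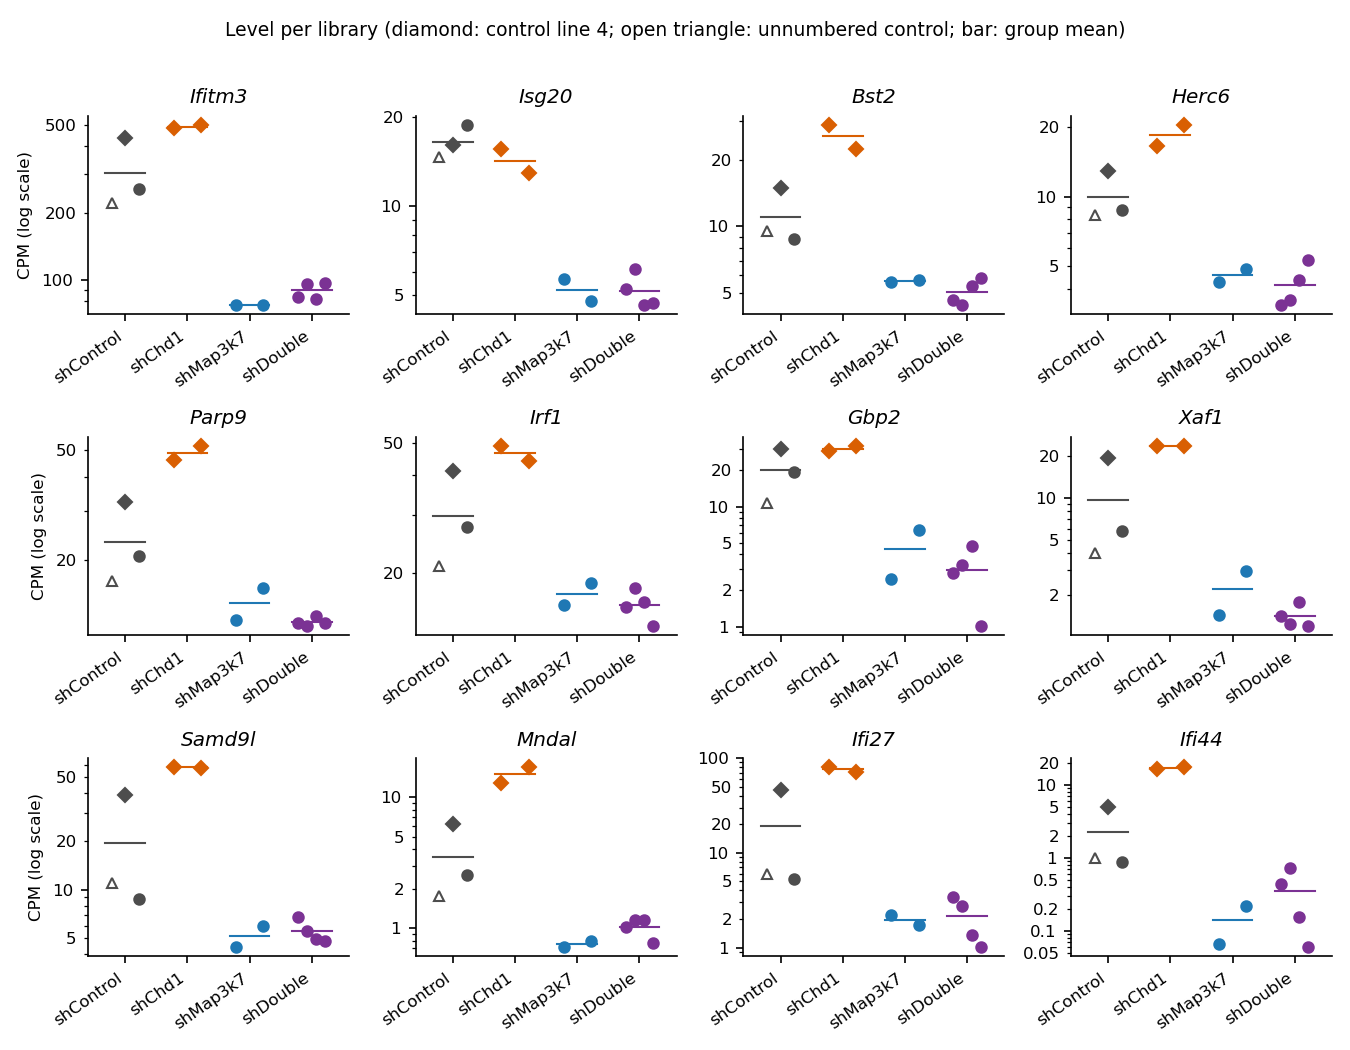
Level of 12 members in each library (CPM, log axis), by group; diamonds are libraries of control line 4, open triangles the unnumbered control, bars the group means. For Ifitm3 the 6 Map3k7 hairpin libraries sit at 77.1 to 97 CPM and the 5 others at 221 to 498 CPM, and for 11 of the 12 genes shown, Isg20 being the exception, control 4 is the highest control.

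Among effectors that act on RNA or nucleotides, 7 of 10 members were tested. Isg20 (chr7:78913424-78920396, plus strand) held 4.63 to 6.15 CPM (median 5.02) with the Map3k7 hairpin, below its 14.7 to 18.8 CPM in the controls and the 15.6 and 13.0 CPM in shChd1. It fell by 1.66 ± 0.20 in shMap3k7 (adjusted p = 0.00152) and by 1.67 ± 0.16 in shDouble (adjusted p = 0.00014). As with Ifitm3, no alternative lost either call. Oas3, an enzyme that senses double-stranded RNA and makes a nucleotide second messenger, fell in shDouble but did not pass in shMap3k7 (in shDouble, log2 -2.10 ± 0.58, adjusted p = 0.0249; adjusted p = 0.165 with the estimated correlation), at 0.0521 to 0.260 CPM with the Map3k7 hairpin against 0.437 to 0.880 CPM in controls. The other 5 tested did not pass in either comparison. Of these, Ifit1, Oas1a and Oasl2 were scarce, at 0.0594 to 0.442, 0.208 to 1.50 and 0 to 0.195 CPM with the Map3k7 hairpin and 0.125 to 0.467, 0.220 to 1.76 and 0 to 0.623 CPM in controls. Ifit2, whose protein binds RNA and a host translation factor, and Cmpk2, a mitochondrial nucleotide kinase, did not stand below the controls. Ifit2 held 6.30 to 17.2 CPM with the Map3k7 hairpin and 6.62 to 10.2 CPM in controls. Cmpk2 held 0.417 to 1.24 CPM against 0.330 to 0.374 CPM, a log2 difference of 1.64 ± 0.49 in shMap3k7 (adjusted p = 0.0552). The Ifit genes lie together on chromosome 19, where the median of 469 genes departed from the controls by 0.27 to 0.48 in the 6 Map3k7 hairpin libraries. Ifitm3, Isg20, Irf7 and Trim21 lie on chromosome 7, whose median stood at -0.37 to -0.40 in the clone 7 libraries and at -0.07 to -0.10 in those of clone 1. Other chromosomes also departed. Chromosome 4 (Isg15 and Ddx58) stood at 0.31 to 0.32 in clone 1. In clone 7, chromosome 16 (Parp9, Parp14 and Dtx3l) stood at -0.20 to -0.24, chromosome 5 (Oas1a and Oas3) at -0.20 to -0.22 and chromosome 8 (Bst2) at 0.22 to 0.23. The part of these chromosome medians in the gene values was not tested.

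Guanylate-binding proteins are GTPases that attack the membranes of intracellular pathogens. Gbp2, Gbp3 and Gbp7 are neighbours on chromosome 3, and RSEM, the counting program, divides reads shared between such similar genes. Gbp2 stood at 10.7, 29.99 and 19.2 CPM in the controls, 28.9 and 31.9 CPM in shChd1, and 1.01 to 6.37 CPM (median 3.02) with the Map3k7 hairpin. It fell by 2.18 ± 0.60 in shMap3k7 (adjusted p = 0.0416) and by 2.76 ± 0.47 in shDouble (adjusted p = 0.00299). Gbp7 stood at 1.93, 8.46 and 2.31 CPM in the controls, 13.6 and 16.2 CPM in shChd1, and 0.417 to 1.06 CPM (median 0.719) with the Map3k7 hairpin. Its fall was 2.76 ± 0.69 in shMap3k7 (log2 difference -2.76, adjusted p = 0.0288) and 2.49 ± 0.51 in shDouble (log2 difference -2.49, adjusted p = 0.00667). Neither gene's Map3k7 hairpin libraries overlapped the controls. Gbp3 did overlap them, at 1.75, 6.59 and 2.47 CPM in the controls and 0.713 to 1.96 CPM (median 1.08) with the Map3k7 hairpin, with 8.4 and 8.98 CPM in shChd1. It fell in shDouble (log2 -1.68 ± 0.47, adjusted p = 0.0256; 0.201 without line 4). With the estimated correlation the adjusted p in shMap3k7 was 0.137 for Gbp2 and 0.161 for Gbp7, and in shDouble it was 0.0883 for Gbp7 and 0.170 for Gbp3.

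In the ISG15 and ubiquitin pathway, the ligase Herc6 and the antibody receptor and ligase Trim21 fell. Herc6, which attaches ISG15 to proteins in mouse cells, stood at 8.36, 12.9 and 8.74 CPM in the controls, 16.6 and 20.4 CPM in shChd1, and 3.40 to 5.35 CPM (median 4.33) with the Map3k7 hairpin. It fell by 1.13 ± 0.27 in shMap3k7 (adjusted p = 0.0234) and by 1.26 ± 0.21 in shDouble (adjusted p = 0.0027). Trim21 stood at 6.05, 9.60 and 4.07 CPM in the controls, 13.1 and 10.3 CPM in shChd1, and 1.25 to 2.89 CPM (median 2.48) with the Map3k7 hairpin, a fall of 1.53 ± 0.44 in shMap3k7 (log2 difference -1.53, adjusted p = 0.0469) and 1.49 ± 0.34 in shDouble (log2 difference -1.49, adjusted p = 0.0114). Isg15 itself, the ubiquitin-like modifier, was scarce. It stood at 0.312, 1.56 and 0.385 CPM in the controls, 1.56 and 2.97 CPM in shChd1, and 0.0442 to 0.238 CPM (median 0.164) with the Map3k7 hairpin, and fell in shDouble but did not pass in shMap3k7 (in shDouble, log2 -2.40 ± 0.69, adjusted p = 0.0294). With the estimated correlation, Herc6 had an adjusted p = 0.0684 and Trim21 an adjusted p = 0.147 in shMap3k7, and Trim21 an adjusted p = 0.0691 and Isg15 an adjusted p = 0.225 in shDouble. Trim25, a ligase that activates RIG-I, ran from 76.4 to 93.8 CPM over all 11 libraries and passed in no comparison. Usp18, the protease that removes ISG15, had 3 counts in shMap3k7 against 17 in shControl, a ratio of 3.09 after scaling (95% counting interval 0.894 to 16.5, which covers counting error only).

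Parp9, Parp14 and Dtx3l act in ADP-ribosylation, with Dtx3l the ubiquitin ligase partner of Parp9. They lie within 1 stretch of chromosome 16, and Parp9 (chr16:35938470-35972605, plus strand) overlaps Dtx3l (chr16:35926511-35939151, minus strand), so reads of that overlap cannot be told apart without strand. Parp9 stood at 16.7, 32.5 and 20.6 CPM in the controls, 46.0 and 51.7 CPM in shChd1, and 11.5 to 15.7 CPM (median 11.9) with the Map3k7 hairpin. Parp14 stood at 5.87, 27.4 and 11.8 CPM, 32.4 and 35.1 CPM, and 2.56 to 6.37 CPM (median 3.85) in the same order. For Dtx3l the values were 12.4, 24.3 and 19.1 CPM, 36.3 and 34.2 CPM, and 10.2 to 16.7 CPM (median 13.4). Only Parp9 was free of overlap between the Map3k7 hairpin libraries and the controls. None of the 3 passed in shMap3k7. In shDouble, Parp9 fell by 0.97 ± 0.20 (adjusted p = 0.00666) and Parp14 fell by 1.99 ± 0.44 (adjusted p = 0.00975; adjusted p = 0.0610 without line 4 and adjusted p = 0.0999 with the estimated correlation), while Dtx3l differed by -0.41 ± 0.22 (adjusted p = 0.199).

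The nucleic acid sensors did not move together. Zbp1, which senses left-handed nucleic acid and can trigger cell death, stood at 1.06, 8.72 and 1.87 CPM in the controls and at 15.2 and 10.4 CPM in shChd1. It had 2 counts in shMap3k7 against 219 in shControl, a ratio of 59.8 after scaling (95% counting interval 16.3 to 496), and 0 to 0.208 CPM (median 0.0687) in the 6 Map3k7 hairpin libraries. It fell in shMap3k7 (adjusted p = 0.0184) and in shDouble (log2 -5.21 ± 0.84, adjusted p = 0.00233). With the estimated correlation, Zbp1 had an adjusted p = 0.196 in shMap3k7 and an adjusted p = 0.101 in shDouble. Ddx58, which encodes the RNA sensor RIG-I, stood at 40.4, 56.3 and 44.3 CPM in the controls, 74.6 and 77.6 CPM in shChd1 and 43.9 to 59.96 CPM (median 47.1) with the Map3k7 hairpin, and passed in neither comparison. The same held for the RNA sensors Ifih1 (MDA5), at 3.74 to 7.90 CPM with the Map3k7 hairpin against 3.90 to 7.78 CPM in controls, and Dhx58 (LGP2), at 0.918 to 2.28 CPM against 0.880 to 1.75 CPM. Eif2ak2, the RNA-activated kinase PKR, stood at 46.2, 53.8 and 38.3 CPM in the controls, 69.4 and 68.1 CPM in shChd1 and 30.6 to 38.6 CPM (median 33.8) with the Map3k7 hairpin. It fell in shDouble but did not pass in shMap3k7 (in shDouble, log2 -0.45 ± 0.13, adjusted p = 0.0271; adjusted p = 0.137 without line 4 and adjusted p = 0.0741 with the estimated correlation).

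Of the 4 transcription factors on the list, 0 passed in shMap3k7 and 2 fell in shDouble, where 7.08% and 13.6% of all genes fell. Irf1, which is induced by interferon gamma and by NF-kB, stood at 21.0, 40.9 and 27.7 CPM in the controls, 48.9 and 44.0 CPM in shChd1 and 13.7 to 18.6 CPM (median 16.1) with the Map3k7 hairpin, with no overlap. Its log2 difference was -0.79 ± 0.24 in shMap3k7 (adjusted p = 0.0567), and it fell by 0.91 ± 0.19 in shDouble (adjusted p = 0.00843; adjusted p = 0.0507 with the estimated correlation). Stat2 stood at 20.4, 30.5 and 31.8 CPM in the controls, 26.1 and 26.6 CPM in shChd1, and 10.6 to 21.6 CPM (median 14.2) with the Map3k7 hairpin. It fell in shDouble (log2 -0.87 ± 0.24, adjusted p = 0.0240; adjusted p = 0.111 without line 4 and adjusted p = 0.0531 with the estimated correlation). Irf9, the DNA-binding partner of the STATs, stood at 11.7, 19.5 and 8.08 CPM in the controls, 19.97 and 20.4 CPM in shChd1 and 8.58 to 9.76 CPM (median 9.17) with the Map3k7 hairpin, inside the range of the controls. Irf7, the factor that amplifies interferon production, stood at 0.624, 3.74 and 0.825 CPM in the controls, 5.48 and 6.2 CPM in shChd1 and 0.260 to 0.780 CPM (median 0.376) with the Map3k7 hairpin. Irf9 and Irf7 passed in neither comparison (adjusted p = 0.115 and 0.0655 in shDouble).

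The remaining members have less settled roles. Mndal, a nuclear protein of the Ifi200 family whose members resemble each other, stood at 1.75, 6.28 and 2.53 CPM in the controls, 12.8 and 17 CPM in shChd1 and 0.715 to 1.15 CPM (median 0.907) with the Map3k7 hairpin. It fell by 2.22 ± 0.53 in shMap3k7 (adjusted p = 0.0247) and by 1.78 ± 0.39 in shDouble (adjusted p = 0.0096). Xaf1, a pro-apoptotic antagonist of XIAP, stood at 3.99, 19.3 and 5.77 CPM, 23.6 and 23.7 CPM, and 1.19 to 2.97 CPM (median 1.42), and fell by 2.15 ± 0.62 in shMap3k7 (adjusted p = 0.0497) and by 2.79 ± 0.49 in shDouble (adjusted p = 0.00341). The Map3k7 hairpin libraries stayed below the controls for both. Ifi44 stood at 0.999, 5.03 and 0.880 CPM, 16.8 and 17.8 CPM, and 0.0594 to 0.734 CPM (median 0.187), and fell by 4.01 ± 1.16 in shMap3k7 (adjusted p = 0.0490) and by 2.66 ± 0.73 in shDouble (adjusted p = 0.0253). Samd9l, a restriction factor and brake on growth, stood at 11, 38.7 and 8.80 CPM, 58 and 57.5 CPM, and 4.42 to 6.81 CPM (median 5.27). It narrowly missed the threshold in shMap3k7 (log2 -1.91 ± 0.56, adjusted p = 0.0518) and fell by 1.81 ± 0.43 in shDouble (adjusted p = 0.0135). With the estimated correlation the adjusted p in shMap3k7 was 0.156 for Mndal, 0.177 for Xaf1 and 0.232 for Ifi44. In shDouble it was 0.115 for Mndal, 0.0596 for Xaf1, 0.186 for Ifi44 and 0.113 for Samd9l. Ifi35 stood at 15.1, 29.8 and 18.1 CPM, 29.99 and 33.9 CPM, and 13.2 to 16.6 CPM (median 14.3). Lgals3bp, a secreted galectin-binding protein, stood at 0.125, 1.45 and 0.605 CPM, 3.86 and 2.21 CPM, and 0.0442 to 0.724 CPM (median 0.228). Neither Ifi35 nor Lgals3bp passed against shControl, and the Map3k7 hairpin libraries overlapped the controls for both.

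**Figure D3:**
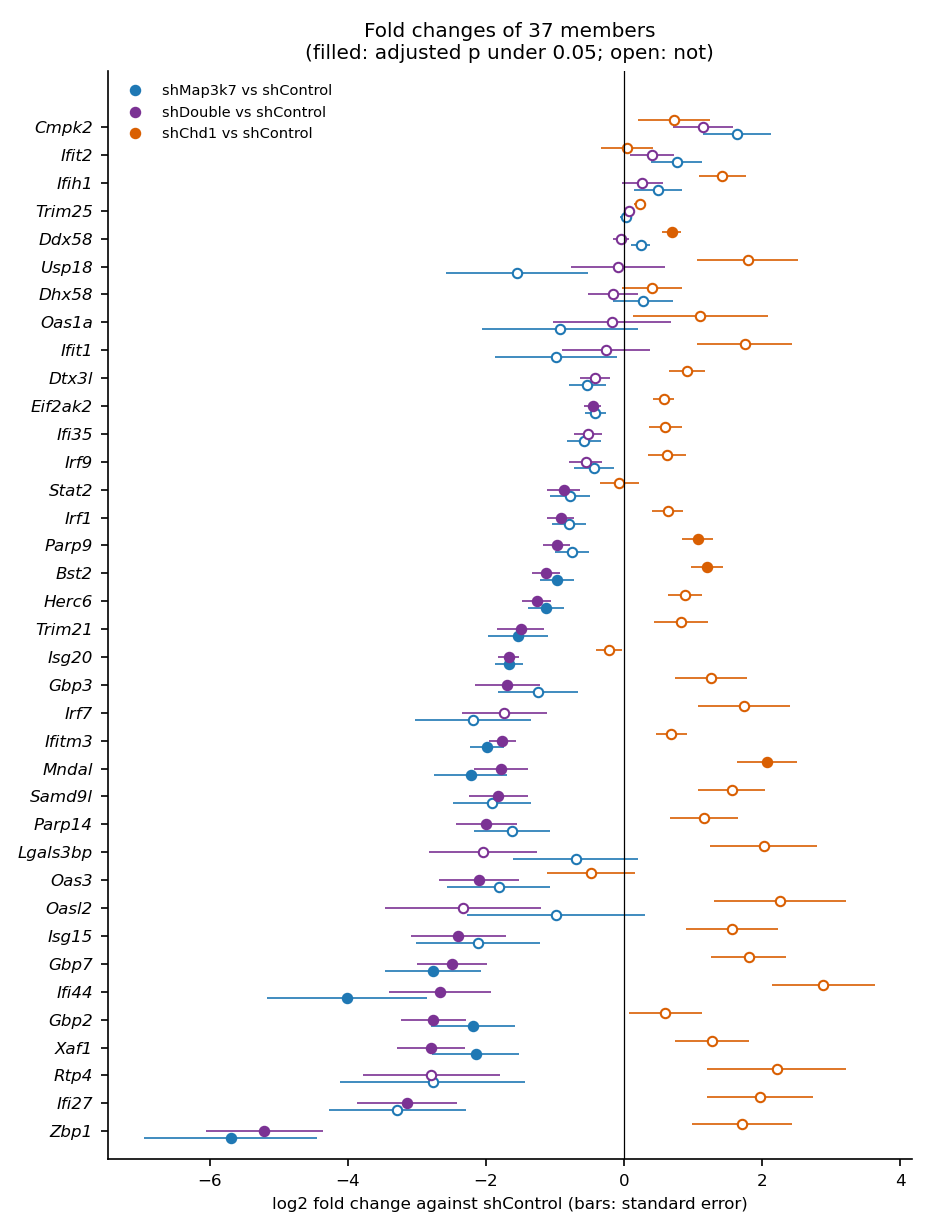
Log2 difference from shControl with its standard error (edgeR model) for the 37 members, ordered by the value in shDouble; filled points passed at an adjusted p under 0.05. Blue and purple points (shMap3k7, shDouble) lie left of 0 for most genes and 11 and 21 of them are filled; orange points (shChd1) lie right of 0 for 34 genes and 4 are filled.

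Adding a Chd1 hairpin to the Map3k7 clones gave no called difference, also not for Chd1 itself (log2 -0.30). Against shControl, Chd1 differed by a log2 of -0.13 in shDouble, which did not pass. In shChd1 its log2 difference was -0.46 (adjusted p = 0.0470, and 0.134 with line as a fixed replicate block). The fall in Chd1 was thus small in the clones. Between shDouble and shMap3k7, 0 of 37 members and 0 of all genes (0%) passed, with 0 members and 115 of all genes at an unadjusted p under 0.05. DESeq2 and limma voom also called 0 members. The median log2 difference of the members was -0.09, against 0.01 over all genes. The spread between the 2 clones was wide for some members. Gbp2 stood at 2.47 CPM in clone 1 and 6.37 CPM in clone 7, and at 1.01 CPM in clone 7 with 96528, the lowest of the 6.

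The second question was what the Chd1 hairpins did in cells without the Map3k7 hairpin. The shChd1 libraries held more of most members than the controls. Against shControl, 4 of 37 rose and 0 fell, where 0.662% of all genes tested rose and 2.24% fell. The members that rose were Ddx58 (log2 0.69 ± 0.14, adjusted p = 0.0358), Bst2 (1.21 ± 0.23, adjusted p = 0.0354), Parp9 (1.07 ± 0.23, adjusted p = 0.0444) and Mndal (2.07 ± 0.43, adjusted p = 0.0415). The median over the 37 was 1.11, against -0.01 over all genes, with 34 of 37 above 0. An unadjusted p under 0.05 was found for 27 members and for 3603 of all genes tested. Both shChd1 libraries lay above all 3 controls for 29 members, against 23.1% of all genes. Some members were tested only because shChd1 was high. Isg15, Ifit1, Oasl2 and Usp18 had too few reads when shMap3k7 or shDouble was fitted with shControl alone. They had enough where shChd1 was among the groups fitted, so their direction here was partly set by the filter.

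These values sit on top of the high level of line 4 already described. With line as a replicate block, which sets each shChd1 library against control 4, 0 members passed, 0.990% of all genes passed in either direction, and the median was 0.52. The blocked log2 differences were 0.44 ± 0.11 for Ddx58 (adjusted p = 0.0934), 0.79 ± 0.19 for Bst2 (adjusted p = 0.0879), 0.59 ± 0.13 for Parp9 (adjusted p = 0.0764) and 1.25 ± 0.28 for Mndal (adjusted p = 0.0713). Without control 4 the count was 25 members, where 18.7% of all genes passed in either direction, and without any other single library it was 0. DESeq2 called 13 members and 12.0% of all genes, and limma voom 11 members and 3.59% of all genes. The effect of the hairpins and that of line 4 cannot be told apart from shChd1 against shControl alone.

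Within line 4 itself, both shChd1 libraries stood above control 4 for 30 of the 37 members, against 36.6% of all genes. The ratio of the shChd1 mean to control 4 was 3.43 for Ifi44, 2.37 for Mndal, 1.89 for Rtp4, 1.76 for Gbp7, 1.72 for Bst2, 1.64 for Ifi27 and 1.50 for Parp9. It was 1.13 for Ifitm3, 1.04 for Irf9, 1.01 for Gbp2 and 0.889 for Isg20. These ratios rest on the single library of control 4, and differences between members in them were not tested. The median log2 ratio to control 4 was 0.44 with hairpin 96526 and 0.44 with 96528, with 32 and 33 of 37 members higher, where 49.7% and 48.4% of all genes were higher.

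In the clones with the Map3k7 hairpin, the ratios to the same line lay closer to 0 or below it. In clone 1, 20 of 37 members (54.1%) were higher with 96526 and 23 (62.2%) with 96528, where 49.1% and 50.0% of all genes were higher. The median log2 ratios were 0.11 and 0.12, and both libraries were above the clone's own library for 18 members against 34.1% of all genes. In clone 7, 9 (24.3%) and 10 (27.0%) members were higher, where 51.3% and 51.2% of all genes were higher. The medians were -0.19 and -0.26, and both libraries were above the clone's own for 4 members, against 35.9% of all genes. Ifi44 had 97 counts in control 4 and 270 and 281 with the hairpins. In the clones it rested on few counts, with 1 in clone 1 and 10 and 16 with the hairpins, and 3 in clone 7 and 3 and 1 with the hairpins. The log2 ratio of Samd9l to the same line was 0.58 and 0.57 in line 4, 0.62 and 0.34 in clone 1, and -0.28 and -0.32 in clone 7. For Bst2 the ratios were 0.95 and 0.60, -0.27 and -0.34, and -0.09 and 0.03.

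**Figure D4:**
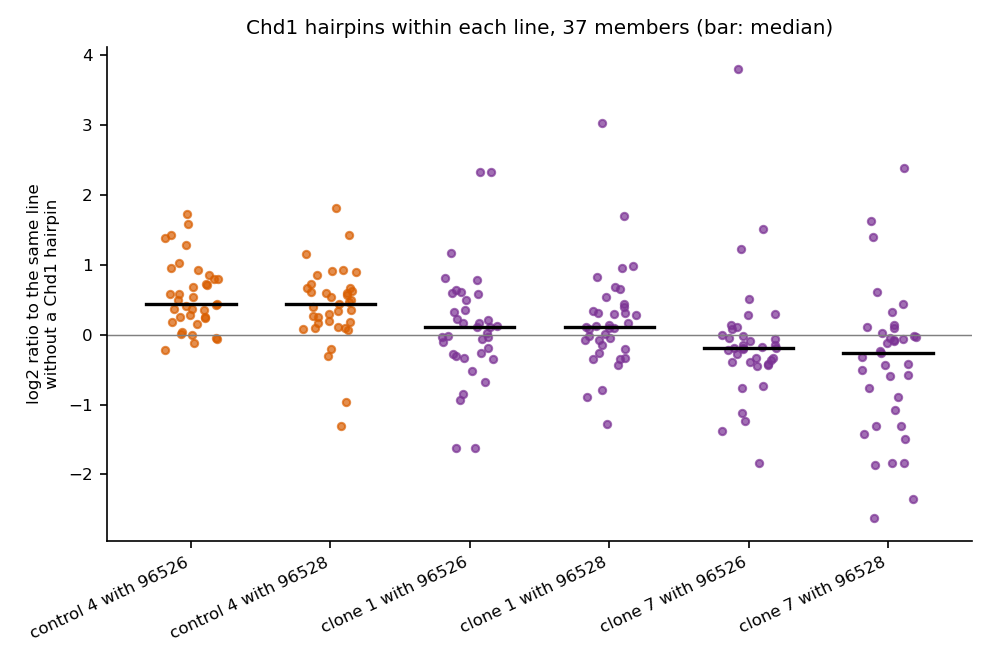
Log2 ratio of each of the 37 members in a library with a Chd1 hairpin to the library of the same line without one; each point is a gene, bars are medians, and points are spread sideways at random. The medians are 0.44 and 0.44 in control line 4, 0.11 and 0.12 in clone 1, and -0.19 and -0.26 in clone 7.

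With all 3 lines in a model of line plus Chd1 hairpin, 0 of 37 members passed, and 0.0279% of all genes rose. The median was 0.13, with 6 members and 704 of all genes at an unadjusted p under 0.05. Ifi44 had the smallest adjusted p (log2 1.70 ± 0.36, adjusted p = 0.550). Of the members, limma voom called that gene alone (0.132% of all genes) and DESeq2 none. Whether the Chd1 effect differed with and without the Map3k7 hairpin was tested as an interaction, and 0 members and 0% of all genes passed. Its median over the members was -1.18, against 0.02 over all genes. In this test, 12 members and 1998 of all genes had an unadjusted p under 0.05. The smallest adjusted p among the members was 0.153, for Ddx58. DESeq2 called 4 members in the interaction (Parp9, Ifih1, Ddx58 and Bst2) and 2.75% of all genes. Without control 4, edgeR called 17 members and 7.09% of all genes. With line as a replicate block it called 0 members and 0.0767% of all genes, with a median of -0.55.

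The comparison with the most members called was shDouble against shChd1, which differ in the Map3k7 hairpin and also in the line. Chd1 itself was also called higher in shDouble (log2 0.33), though not with the estimated correlation (log2 0.29, adjusted p = 0.170). Of 37 members, 31 were lower in shDouble and 0 higher, where 22.2% of all genes were lower and 22.6% higher. Isg15, Ifit1, Oasl2 and Usp18 were among the 31. They had enough reads to be tested only through their shChd1 levels, as described above, so their direction here was partly set by the filter. The median log2 difference was -2.15, against 0.01 over all genes. Every role held members that fell. All 4 transcription factors fell, with Irf7 lower by 3.47 ± 0.65 (log2 difference -3.47, adjusted p = 0.00189), Irf1 (-1.55 ± 0.21, adjusted p = 0.000404), Irf9 (-1.17 ± 0.26, adjusted p = 0.00451) and Stat2 (-0.81 ± 0.27, adjusted p = 0.0305). All 4 membrane proteins fell, Ifitm3 by a log2 difference of -2.45 ± 0.21 (adjusted p = 5.12e-05), Bst2 by -2.34 ± 0.22 (adjusted p = 7.17e-05), Ifi27 by -5.12 ± 0.79 (adjusted p = 0.000693) and Rtp4 by -5.00 ± 1.04 (adjusted p = 0.00334). The same was true of the 3 guanylate-binding proteins, the 3 ADP-ribosylation genes and the 6 remaining members, with Ifi44 at -5.55 ± 0.78 (adjusted p = 0.000436) and Lgals3bp at -4.07 ± 0.79 (adjusted p = 0.00233). Ifih1, Ddx58, Eif2ak2 and Zbp1 fell among the 5 sensors, so that Ddx58, which passed in neither Map3k7 comparison with shControl, differed here by -0.74 ± 0.13 (adjusted p = 0.00131). Ifit2, Dhx58, Oas1a, Oas3, Trim25 and Cmpk2 did not pass. With counts summed per line and group, which leaves 1 value for shChd1, 18 members were lower, where 6.16% of all genes were lower. Leaving out single libraries gave 26 to 31 members, with 24.4% to 46.4% of all genes called in either direction. With the estimated correlation 22 members were lower, where 11.8% of all genes were. The 9 calls lost had an adjusted p from 0.0542 (Isg15) to 0.327 (Usp18), and among those named above the adjusted p was 0.101 for Irf9, 0.111 for Stat2, 0.170 for Ifih1 and 0.0608 for Lgals3bp.

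The 5 members left out of the test had at most 10 counts in any library. Oas2 had 0 counts in all shMap3k7 and shDouble libraries, which allows up to 0.103 CPM in shMap3k7 and 0.0373 CPM in shDouble, and its highest level was 0.498 CPM in control 4 with 96526. Mx2 had 0 counts in shMap3k7 and at most 0.316 CPM elsewhere. Mx1 and Mx2, dynamin-like GTPases that trap incoming virus, Rsad2 (viperin) and Ifit3 are among the classical strong responders to interferon, and none of them passed 0.560 CPM in any of the 11 libraries. With no filter on low counts, Oas2 was called lower in shDouble than in shChd1, and that was the only call among these 5 in any comparison.

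The genes upstream of the list were examined next, by a list of 40 signalling genes of which 30 were tested. None of the 10 interferon ligand genes had enough reads, and Ifnb1, the interferon beta gene, had 0 counts in every library. Receptor subunits were lower with the Map3k7 hairpin. Of 6 tested, 5 fell in shMap3k7 and 5 in shDouble, and 0 rose, where 7.08% and 13.6% of all genes fell. Ifnar2 stood at 46.5, 92.9 and 48.0 CPM in the unnumbered control, control 4 and control 5, at 98.1 and 83.8 CPM in shChd1, and at 14.9 to 20.6 CPM in the 6 Map3k7 hairpin libraries. It fell by 1.68 ± 0.28 in shMap3k7 (adjusted p = 0.00642) and by 1.88 ± 0.22 in shDouble (adjusted p = 0.00047). Ifnar1 stood at 69.5, 106 and 65.3 CPM, 117 and 119 CPM, and 40.3 to 48.3 CPM, and fell by 0.80 ± 0.18 in shMap3k7 (log2 difference -0.80, adjusted p = 0.0219). The Map3k7 hairpin libraries were below all controls for both subunits of this receptor. Of the interferon gamma receptor, Ifngr2 fell by 1.14 ± 0.20 in shMap3k7 (adjusted p = 0.00859) and Ifngr1 fell by 0.75 ± 0.17 (log2 difference -0.75, adjusted p = 0.0222). Il10rb, a subunit shared by the interferon lambda and interleukin-10 receptors, fell by 0.90 ± 0.14 (adjusted p = 0.00502). Without line 4 the adjusted p of Ifngr1 in shMap3k7 was 0.0590, and with the estimated correlation it was 0.0763. Ifnlr1, the other lambda receptor subunit, stood at 4.06 to 8.63 CPM in controls and 6.93 to 9.37 CPM with the Map3k7 hairpin and passed in neither.

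Of 5 kinases and STATs, 2 fell in shMap3k7 and 3 in shDouble, where 7.08% and 13.6% of all genes fell. Stat3, the factor of interleukin-6 type cytokines, stood at 247 to 346 CPM in the controls, 376 and 403 CPM in shChd1 and 76.2 to 107 CPM with the Map3k7 hairpin, and fell by 1.74 ± 0.20 in shMap3k7 (adjusted p = 0.000975). Jak1 fell by 0.51 ± 0.14 (adjusted p = 0.0434), and Jak2 fell in shDouble but did not pass in shMap3k7 (in shDouble, log2 -0.75 ± 0.23, adjusted p = 0.0362). Without line 4 the adjusted p was 0.147 for Jak1 in shMap3k7 and 0.140 for Jak2 in shDouble, and with the estimated correlation it was 0.148 for Jak2. Tyk2 stood at 26.5 to 32.6 CPM in the controls and 24.3 to 30.7 CPM with the Map3k7 hairpin and passed in no comparison. The feedback inhibitor Socs3, itself a STAT3 target, stood at 57.2 to 72.2 CPM in the controls and 5.65 to 18.0 CPM with the Map3k7 hairpin, a fall of 2.32 ± 0.39 in shMap3k7 (log2 difference -2.32, adjusted p = 0.00683). It was the only one of 7 negative regulators to pass there, and Pias1 passed only between shDouble and shChd1 (log2 -0.71 ± 0.24, adjusted p = 0.0345; adjusted p = 0.120 with the estimated correlation).

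**Figure D5:**
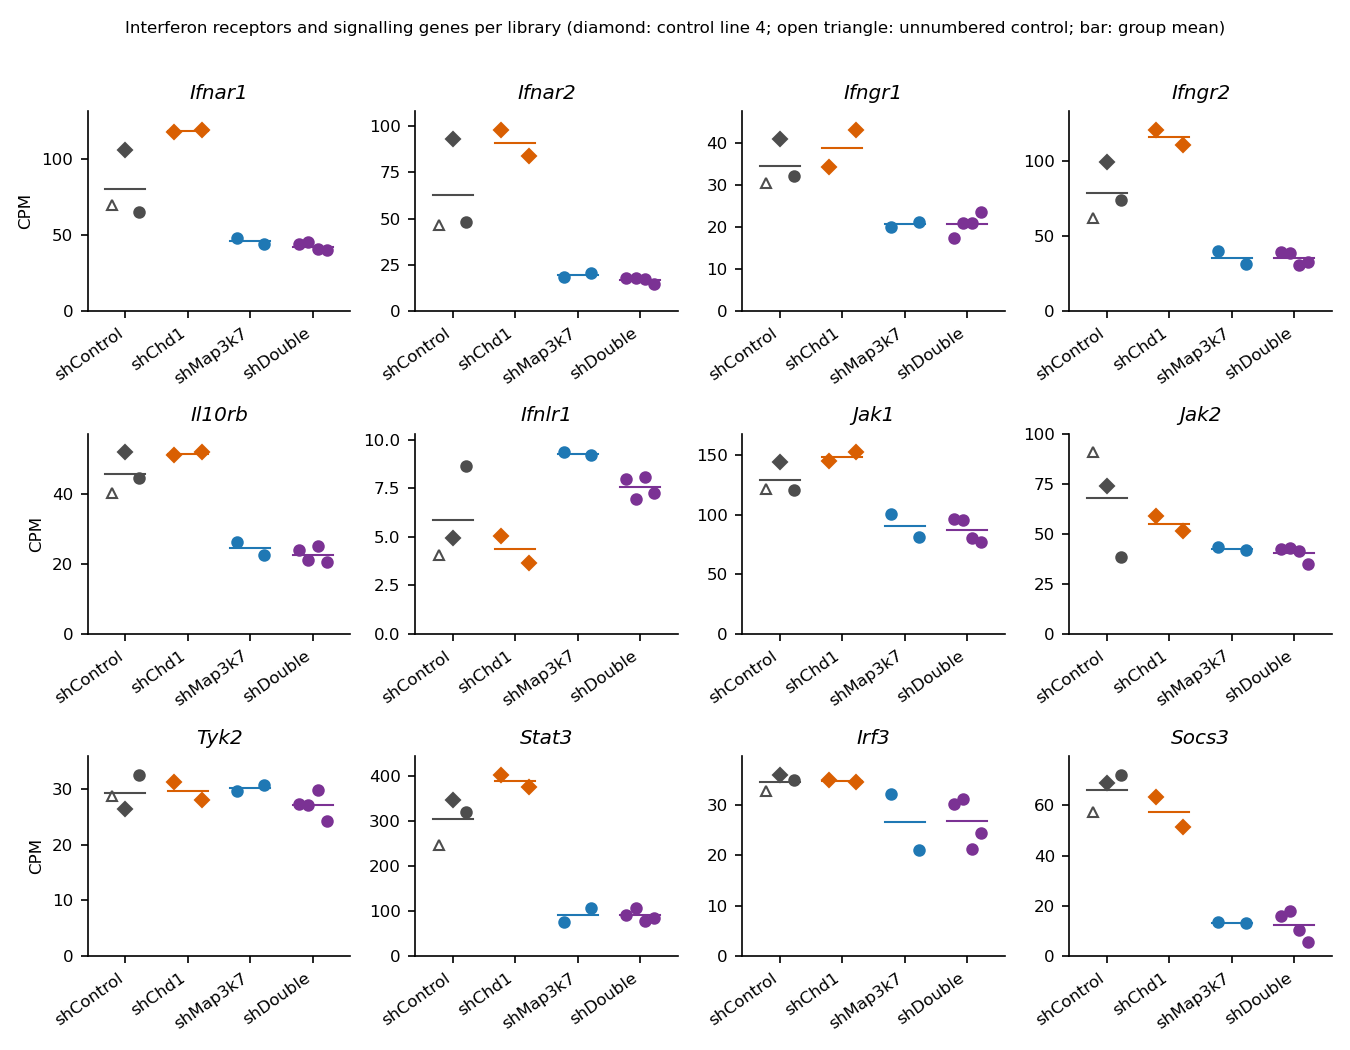
CPM per library (linear axes from 0) of 6 interferon receptor subunits and 6 signalling genes (Jak1, Jak2, Tyk2, Stat3, Irf3 and Socs3); diamonds are control line 4, open triangles the unnumbered control, bars group means. Ifnar2 lies at 14.9 to 20.6 CPM in the 6 Map3k7 hairpin libraries and at 46.5 CPM or more in the others, whereas Tyk2 lies at 24.3 to 32.6 CPM in all 11.

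Among 12 sensors and adaptors, Tlr4 fell in shMap3k7 (log2 -0.62 ± 0.16, adjusted p = 0.0302) and rose in shChd1 (0.71 ± 0.15, adjusted p = 0.0429). In shDouble against shControl, 5 fell and 1 rose, where 13.6% of all genes fell and 10.2% rose. Those that fell were Tlr4 (-0.65 ± 0.13, adjusted p = 0.00562), the adaptors Ticam1 (-0.54 ± 0.14, adjusted p = 0.0179) and Myd88 (-0.39 ± 0.10, adjusted p = 0.0184), Tmem173, which encodes the DNA sensing adaptor STING (-0.88 ± 0.27, adjusted p = 0.0369), and the kinase Ikbke (-0.57 ± 0.19, adjusted p = 0.0496). Mavs, the adaptor of RIG-I and MDA5, rose (0.32 ± 0.10, adjusted p = 0.0400). Irf3, the factor that first switches on the interferon beta gene, stood at 32.8 to 36.1 CPM in the controls and 21.2 to 32.2 CPM with the Map3k7 hairpin and passed in no comparison. Against shChd1, 13 of the 30 signalling genes tested were lower in shDouble and 4 higher, where 22.2% of all genes were lower and 22.6% higher. The 4 higher were Tlr3 (0.68 ± 0.22, adjusted p = 0.0289), Traf3 (0.48 ± 0.09, adjusted p = 0.00197), Mavs (0.38 ± 0.11, adjusted p = 0.0214) and Ifnlr1 (0.80 ± 0.29, adjusted p = 0.0451). Several of these calls were lost in other fits. For Tlr4 the adjusted p was 0.119 without line 4 and 0.0672 with the estimated correlation in shMap3k7, and 0.0698 with line as a replicate block in shChd1. In shDouble against shControl it was 0.0764, 0.0904 and 0.171 without line 4 for Ticam1, Tmem173 and Mavs. With the estimated correlation it was 0.0957 for Ticam1, 0.0845 for Myd88, 0.168 for Ikbke and 0.184 for Mavs. Between shDouble and shChd1 it was then 0.398 for Tlr3, 0.190 for Mavs and 0.206 for Ifnlr1. Over the whole signalling list, 9 of 30 fell and 0 rose in shMap3k7, 14 fell and 1 rose in shDouble, and 1 rose in shChd1. Of all genes, 7.08% fell and 4.86% rose in shMap3k7, 13.6% fell and 10.2% rose in shDouble, and 0.662% rose in shChd1. The medians of the list were -0.35, -0.38 and 0.03, against -0.0086, -0.00152 and -0.00686 over all genes.

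A further 65 interferon-stimulated genes outside the list were looked at, of which 51 were tested. In shMap3k7, 12 fell and 0 rose (median -0.83), where 7.08% of all genes fell and 4.86% rose. In shDouble, 24 fell and 2 rose (median -0.68), where 13.6% of all genes fell and 10.2% rose. In shChd1, 1 rose and 0 fell (median 0.72), where 0.662% of all genes rose and 2.24% fell. Between shDouble and shChd1, 39 were lower and 2 higher (median -1.54), where 22.2% of all genes were lower and 22.6% higher. The medians over all genes were -0.0086, -0.00152, -0.00686 and 0.00663 in the same order. Among those with the smallest adjusted p were Gbp9, Parp10, Trim30a, Ifi203, Ifitm2, Slfn2 and Tnfsf10, all lower in shDouble than in shChd1. These counts are from the main fit. With the estimated correlation, only Ifitm2 of these named genes passed in shMap3k7 (adjusted p = 0.0229, the others 0.106 to 0.222). In shDouble against shControl, Gbp9 (0.0448), Parp10 (0.0378) and Ifitm2 (0.0242) then passed, and the others had 0.0571 to 0.126. Against shChd1 all of them passed, with an adjusted p of at most 0.0209. Gbp9 stood at 5.12, 19.4 and 6.21 CPM in the controls, 28.8 and 37.5 CPM in shChd1, and 0.357 to 1.67 CPM with the Map3k7 hairpin (shDouble against shChd1 -5.16 ± 0.57, adjusted p = 0.00014). Ifitm2, the neighbour of Ifitm3, stood at 182, 317 and 198 CPM, 346 and 368 CPM, and 102 to 139 CPM (-1.54 ± 0.19, adjusted p = 0.000233). Tnfsf10, the death ligand TRAIL, stood at 1.37, 4.00 and 0.495 CPM, 8.77 and 11.9 CPM, and 0.0442 to 0.275 CPM (-6.04 ± 0.76, adjusted p = 0.000265). Once the libraries of line 4 were left out, Tnfsf10 had too few reads to be tested. Slfn2, a regulator of lymphocyte quiescence, had 0 counts in shMap3k7 and at most 0.0459 CPM in shDouble, against 0.687 to 2.14 CPM in the controls. As among the 42 members, control 4 was above both other controls for Gbp9, Ifitm2 and Tnfsf10, and below control 5 for Slfn2.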

How the data were processed

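The 11 libraries were made from RNA of WFU3 cells, enriched on oligo(dT) and copied with random hexamers, per the labels' protocols. No step that keeps strand is described. The deposited values are expected counts per gene from RSEM 1.3.1 with Bowtie2 on GRCm38, per the submitters' processing notes, which also name limma. The annotation used there is not given in the sources used here. RSEM divides reads that fit several genes, so 7.83% to 9.11% of the values in a library are not whole. The table has 48299 rows, of which 25 carry dates in place of symbols, and every value column was mapped to a library by its title. Rows were matched by symbol, and gene positions come from GENCODE M21 (GRCm38).

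Counts were rounded, and 14346 genes passed edgeR's filterByExpr (minimum count 10, minimum total 15). The main test was edgeR 4.0.16's quasi-likelihood F-test in R 4.3.3, with TMM scaling, 1 mean per group over all 11 libraries and Benjamini-Hochberg adjustment over all genes tested. The comparison of Chd1 hairpins within a line used line plus hairpin. Differences are log2 fold changes with standard errors. CPM uses effective library sizes, and log2 CPM for the plots adds a prior count of 0.5. Intervals of pooled ratios and the limits set by 3 counts cover counting error only. Alternatives were DESeq2 1.42.0, limma 3.58.1 voom, RLE scaling, no filter, only the groups compared, counts summed per line, line as a block, and single libraries left out. Leaving out line 4's 3 libraries was added after the data were seen. The fits were tested on simulated counts.

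Lines pair the groups, per the labels: control line 4 links shControl and shChd1, and clones 1 and 7 link shMap3k7 and shDouble. The difference between the clones in shMap3k7 correlated across genes with that in shDouble (r = 0.500). No pair of libraries was alike within sampling noise. The labels do not say that libraries came from separate cultures of a line, so p-values measure the spread between these samples only. The members and the gene lists were chosen with earlier results of these data known. Members called in at least 1 of 7 comparisons (up to 25, smallest adjusted p first) and Stat2, Irf9, Irf7 and Irf1 are given with their value in every library, or with the lowest, median and highest of the 6 Map3k7 hairpin libraries. The other members are given by range. Ifnar1, Ifnar2, Jak1, Tyk2, Irf3 and Ifnb1, each signalling gene called, and the 8 other interferon-stimulated genes with the smallest adjusted p are named as well, except for some genes that are counted in their lists but not reported here.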

Additional observations from a re-analysis of the deposited data

How the results depend on the processing

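Counts of members called depended on the setting. The share of all genes called, both directions together, is given in parentheses. No called difference reversed. In shMap3k7 against shControl, 11 members were called. The count was 15 with DESeq2 (18.2%), 3 with limma voom (9.89%), 2 with only the groups compared (1.68%), 2 with counts summed per line (2.68%), and 3 (5.20%, median log2 difference -0.70) without line 4. Leaving out single libraries gave 2 to 15 (1.62% to 14.6%), with medians of -1.41 to -0.71. In shChd1 against shControl, 4 were called, against 13 with DESeq2 (12.0%), 11 with limma voom (3.59%), 6 with no filter on low counts (2.75%), 0 with only the groups compared and 0 with summed counts. Leaving out single libraries gave 0 to 25 (0% to 18.7%), with medians of 0.86 to 1.49. In shDouble against shControl, 21 were called, against 4 with summed counts (3.72%) and 11 (11.9%, median -0.85) without line 4. Leaving out single libraries gave 15 to 25 (15.3% to 23.1%), with medians of -1.62 to -0.81. Between shDouble and shChd1, 31 were called, against 18 with summed counts (10.5%) and 26 to 31 (24.4% to 46.4%) without single libraries. The interaction had 0 called, against 4 with DESeq2 (2.75%) and 0 to 17 without single libraries (7.09% without control 4), with medians of -1.58 to -0.89. The Chd1 hairpin within line had 0 called, against 1 with limma voom (0.132%) and 1 with no filter on low counts (0.104%), in both cases Ifi44. Leaving out single libraries changed the sign of 2 small medians, which ran from -0.10 to 0.01 in shDouble against shMap3k7 and from -0.04 to 0.31 for the Chd1 hairpin within line. Differences that were not called also changed sign in places, such as Oas1a in shDouble, from -0.17 to 1.03, and Lgals3bp in shMap3k7, from -0.70 to 0.27, both without line 4. The cause of these changes was not tested. Summing counts or leaving out libraries also leaves fewer samples.

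With line as a replicate block, 0 members were called in shChd1 against shControl (median 0.52), and the interaction median was -0.55 with 0 called. With the block as an estimated correlation of 0.631 in limma voom, 2 members were called in shMap3k7 (5.03% of all genes), 6 in shDouble (10.9%) and 6 in shChd1 (2.60%) against shControl, and 22 between shDouble and shChd1 (22.3%). The block changed no call between shDouble and shMap3k7, where 0 were called, and the within-line comparison without the replicate block also called 0. Line could not be fitted as a fixed block where the groups compared share no line.

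Isg20 and Ifitm3 in shMap3k7, and Isg20, Ifitm3 and Gbp2 in shDouble, were called against shControl under every alternative run, as were 16 members between shDouble and shChd1. No shChd1 call against shControl was. Depth limits what can be said of the 13 members that averaged under 1 CPM in controls. Effects of line, passage and hairpin cannot be told apart where a group rests on 1 or 2 lines.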
